A study of Mus musculus with 4 samples.

Results

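The growth hormone and STAT5 dependent genes described here are 10 named genes: the receptor gene Ghr, the transcription factor genes Stat5a and Stat5b, the feedback inhibitor genes Socs2 and Cish, the repressor gene Bcl6, and the 4 male-biased liver genes Hsd3b5, Elovl3, Selenbp2 and Keg1. They were taken by symbol from a table of 22849 gene symbols measured in mouse liver. Each of the 10 had a single row in that table, and all 10 were among the 10786 symbols tested, those whose mean reached 1 FPKM (fragment counts scaled by transcript length and by the size of the library), with no member below 1.58 FPKM in any library. The livers came from male C57BL/6 mice kept for 12 weeks on food with 60% fat. In the vehicle group the food held no UAB126, and in the UAB126 group it held 1.2 g of UAB126 per kg. UAB126 is known here only by this code, and the sources used here give no age for the mice. Each group had 2 libraries, named vehicle replicate 1 and 2 and UAB126 replicate 1 and 2. Whether each came from its own animal is not stated, so a p-value measures the spread between these 4 libraries, part of which may be technical.

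Growth hormone is released by the pituitary in pulses, and in the liver it binds its receptor and activates the kinase JAK2, which phosphorylates STAT5. STAT5 then enters the nucleus and switches on genes such as Socs2 and Cish, whose products damp the signal, and Igf1, which encodes the main growth factor of the blood. In rodents the pulses are sharp in males and more continuous in females, and this pattern sets the liver genes that differ between the sexes. Bcl6, which represses transcription, can bind some of the same DNA sites as STAT5.

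STAT5 binds DNA at the letters TTCNNNGAA, which read the same on both strands. The windows shown here bear on the members that differ most between libraries, Cish and Bcl6, and on a pair of male-biased genes that were lower with UAB126, Keg1 with matches and Selenbp2 without. Each is the sequence from 250 bases before to 30 bases from a RefSeq start site on, 5′ to 3′ on the strand of the gene (RefSeq, GRCm38.p6), with every match in capitals.
Cish (chr9:107296409-107296688, plus strand): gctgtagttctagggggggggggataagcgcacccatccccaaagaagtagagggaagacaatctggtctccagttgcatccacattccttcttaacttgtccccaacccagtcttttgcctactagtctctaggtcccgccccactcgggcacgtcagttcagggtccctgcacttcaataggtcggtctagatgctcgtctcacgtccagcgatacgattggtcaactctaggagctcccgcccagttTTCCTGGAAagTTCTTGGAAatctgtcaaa
Bcl6, inner start (chr16:23981254-23981533, minus strand): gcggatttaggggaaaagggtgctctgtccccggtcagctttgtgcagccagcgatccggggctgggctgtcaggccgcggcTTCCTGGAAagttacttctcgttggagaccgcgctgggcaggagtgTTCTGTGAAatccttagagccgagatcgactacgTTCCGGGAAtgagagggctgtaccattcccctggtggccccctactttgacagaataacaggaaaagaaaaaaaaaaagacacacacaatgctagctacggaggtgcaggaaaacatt
Keg1 (chr19:12695540-12695819, plus strand): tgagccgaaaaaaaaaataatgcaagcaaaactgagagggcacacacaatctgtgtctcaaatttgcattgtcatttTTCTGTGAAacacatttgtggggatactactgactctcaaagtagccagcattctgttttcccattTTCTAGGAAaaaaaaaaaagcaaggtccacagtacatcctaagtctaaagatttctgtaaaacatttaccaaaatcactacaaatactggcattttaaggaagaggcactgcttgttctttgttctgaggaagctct
Selenbp2 (chr3:94693323-94693602, plus strand): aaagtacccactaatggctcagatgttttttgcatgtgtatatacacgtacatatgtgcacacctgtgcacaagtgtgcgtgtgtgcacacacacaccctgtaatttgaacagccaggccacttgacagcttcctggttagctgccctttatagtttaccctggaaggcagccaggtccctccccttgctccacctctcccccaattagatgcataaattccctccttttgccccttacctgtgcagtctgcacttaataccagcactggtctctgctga

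Of 10 members, 8 had such a window, 12 windows in all, and 3 members had a window with a match. Cish held 2 matches, TTCCTGGAA beginning on the RefSeq start base itself and TTCTTGGAA beginning 11 bases after it. The start of Cish in GENCODE M21 lies 633 bases before that base. Bcl6 held 3 at its inner start, which lies 7569 bases inside the gene, and 1 at its outer start. Keg1 held 2, TTCTGTGAA and TTCTAGGAA. Among all 32851 windows of this length, 7.83% held at least 1 match, 0.408% at least 2 and 0.0304% at least 3. A match is a string of letters in this window, not a measured binding site, and no STAT5 binding was measured here. The RefSeq start of Hsd3b5 lies 15282 bases from the start in GENCODE M21, so its window is not shown. Socs2 and Elovl3 had no entry.

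On the FPKM scale, which is per transcript length, Ghr was the highest member, with a mean of 294.9 FPKM over the 4 libraries. Selenbp2 followed at 256.0 FPKM, then Elovl3, Hsd3b5 and Keg1 at 116.7, 104.9 and 102.7 FPKM. Bcl6 (40.3 FPKM), Stat5b (15.1 FPKM), Cish (9.07 FPKM), Stat5a (6.44 FPKM) and Socs2 (3.94 FPKM) were lower. Each member overlapped in its 4 values with its neighbours in this order. Compared within each library, Keg1 exceeded Bcl6 and Bcl6 exceeded Stat5b in every library, while no other step held in every library.

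Between groups, Socs2 and the male-biased genes Hsd3b5, Selenbp2 and Keg1 were lower in both UAB126 libraries than in both vehicle libraries, as was Ghr by a smaller step, while Stat5a, Stat5b and Elovl3 were higher. Cish and Bcl6 varied more within a group than between groups. In limma's test across 10786 symbols on log2(FPKM + 1), 0 of the 10 members had a Benjamini-Hochberg adjusted p under 0.05, against 0.139% of all symbols tested (0.0464% higher, 0.0927% lower). At an unadjusted p under 0.05 there were 6 members, 2 higher and 4 lower with UAB126, where 5.03% of all symbols were higher and 8.38% lower. The groups did not overlap in 8 of the 10 members, 3 higher and 5 lower, against 22.7% higher and 26.9% lower, 49.6% in either direction, among all symbols. No change of a member is therefore established at the threshold, and the values below are given with their errors.

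**Figure D1:**
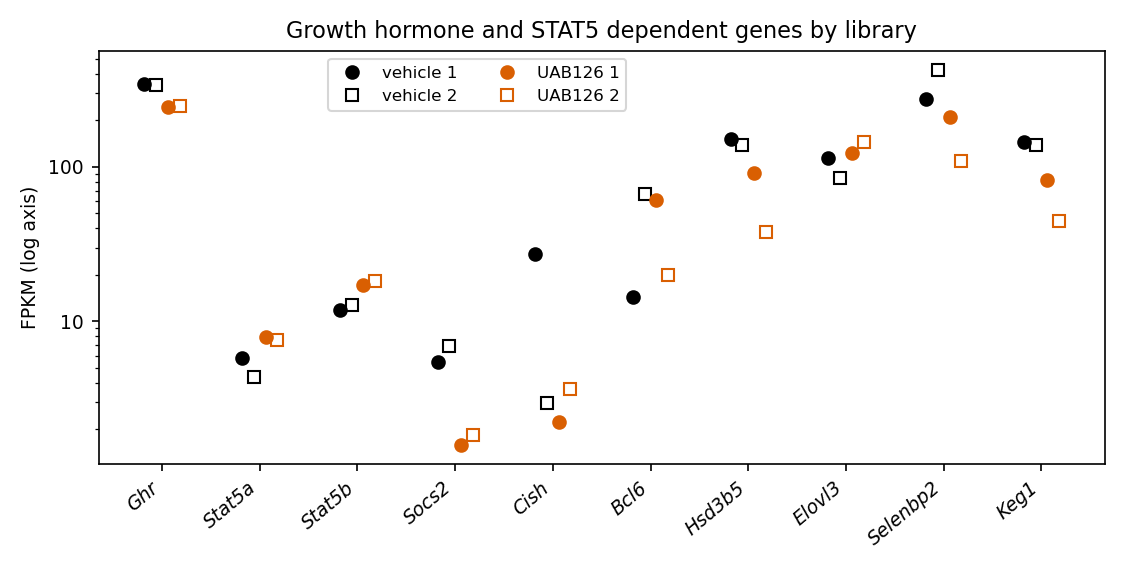
FPKM of the 10 members on a log axis, with 1 point for each library (black, vehicle; orange, UAB126; filled circles, replicate 1; open squares, replicate 2). Both UAB126 points of Socs2 lie under both vehicle points, while vehicle replicate 1 of Cish, at 27.4 FPKM, lies far above the other 3 libraries.

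Ghr encodes the growth hormone receptor (chromosome 15, 3317760 to 3583492, minus strand; this and the other gene positions are from GENCODE M21 on GRCm38, the assembly also called mm10). It was at 345.4 and 339.1 FPKM in the vehicle libraries, against 245.5 and 249.7 FPKM in the UAB126 libraries. Both groups were tight, each within 1.02-fold, and they did not overlap. The log2 difference was -0.47 ± 0.22 (limma's moderated SE, here and below, n = 2 per group, limma adjusted p = 0.418). In the fits without 1 library it stayed between -0.48 and -0.45, but it was -0.09 after quantile normalization, so its size rests on how the libraries are scaled. In whole liver, fewer cells of a type and less RNA per cell cannot be told apart. Of 8 hepatocyte markers tested, 4 were lower in both UAB126 libraries and 0 higher, against 26.9% and 22.7% of all symbols. Their median log2 difference was -0.73, and their part in the Ghr value was not tested. Their summed level was 60749 and 117890 FPKM in the vehicle libraries, against 32514 and 47579 FPKM. That sum includes albumin, listed at 0 in 3 libraries and at 32243 FPKM in vehicle replicate 2, where a 0 in liver may be a failed estimate. Neutrophil markers summed to 31.6 FPKM in vehicle replicate 2 and to at most 2.72 FPKM in the other libraries.

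The neighbouring genes Stat5a (chromosome 11, 100859351 to 100885169, plus strand) and Stat5b (chromosome 11, 100780731 to 100850724, minus strand) encode the STAT5 proteins, of which STAT5B is the main liver form. Stat5a was at 5.78 and 4.37 FPKM in the vehicle libraries, against 7.98 and 7.61 FPKM in the UAB126 libraries. Stat5b was at 11.8 and 12.9 FPKM in the vehicle libraries, against 17.2 and 18.3 FPKM in the UAB126 libraries. Both genes were higher in both UAB126 libraries, opposite to Ghr, by log2 differences of 0.54 ± 0.20 (limma adjusted p = 0.344) and 0.49 ± 0.17 (limma adjusted p = 0.338). Their summed level was 17.6 and 17.2 FPKM against 25.2 and 25.9 FPKM. Stat5b exceeded Stat5a in every library, by 2.05 and 2.94 times in vehicle and 2.16 and 2.40 times with UAB126. The mRNAs are alike enough that 10.1% of the 75-base words of Stat5a, the length of a read, also occur in Stat5b, so fragments there cannot be assigned from 1 read. Leaving out a library moved the log2 difference of Stat5a between 0.37 and 0.71 and that of Stat5b between 0.44 and 0.55.

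Socs2 encodes a suppressor of cytokine signalling that is induced by growth hormone and limits its receptor (chromosome 10, 95385362 to 95417180, minus strand). It was at 5.44 and 6.91 FPKM in the vehicle libraries, against 1.58 and 1.83 FPKM in the UAB126 libraries. The 4 values fall into 2 tight pairs, and the mean was 3.62-fold lower with UAB126. The log2 difference of -1.40 ± 0.20 had the smallest unadjusted p of the members, 7.5e-04, ranked 61 of 10786 symbols, with a limma adjusted p of 0.125. Without vehicle replicate 1 it passed (log2 difference -1.55, limma adjusted p = 0.0156), and in no other fit of Socs2. Such a fit leaves 1 vehicle library, which is assumed to vary like the UAB126 pair. Without UAB126 replicate 1 or 2 the adjusted p of Socs2 was 0.729 or 0.610. It ran from -1.79 with a pseudocount of 0.1 to -1.25 without vehicle replicate 2, always lower. Of the 75-base words of Socs2, 14.0% also occur in the transcript of a gene named Gm9847.

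Cish, the closest relative of Socs2 in this pathway and a classic early STAT5 target (chromosome 9, 107296026 to 107302784, plus strand), gave a different picture. It was at 27.4 FPKM in vehicle replicate 1 and at 2.95 FPKM in vehicle replicate 2, and at 2.22 and 3.67 FPKM with UAB126. Vehicle replicate 1 stood 7.48-fold above the next library, and the other 3 libraries overlapped between groups. The log2 difference of -1.45 ± 0.90 (limma adjusted p = 0.487) rests on that 1 library: without vehicle replicate 1 it was -0.03, and without vehicle replicate 2 it was -2.87 (limma adjusted p = 0.0180, with 1 vehicle library left). Of 10786 symbols, Cish and 2 small nucleolar RNA genes, Snord49a and Snora68, stood in vehicle replicate 1 at or above 6.09 times the highest of the other 3 libraries on FPKM + 1, the factor of Cish on that scale. Those other genes were listed at 0 in the remaining libraries. Cish and Socs2 did not move together across the libraries: Cish was 5.04 times Socs2 in the first vehicle library and 0.427 times in the other, and 1.40 and 2.01 times with UAB126.

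Bcl6 encodes a zinc finger repressor that is itself held down by STAT5 in liver (chromosome 16, 23965052 to 23988852, minus strand). It was at 14.3 and 66.4 FPKM in the vehicle libraries, against 60.7 and 20.0 FPKM in the UAB126 libraries. The group means were nearly the same, at 40.3 FPKM each, because each group held a high and a low library, 4.65-fold apart in vehicle and 3.03-fold apart with UAB126. The log2 difference was 0.17 ± 0.83 (limma adjusted p = 0.939) with a 95% interval of -1.92 to 2.25, so a large change in either direction was not detectable. Its sign turned without vehicle replicate 1 (-0.90) and without UAB126 replicate 1 (-0.61). The libraries lowest in Bcl6, vehicle replicate 1 and UAB126 replicate 2, were the highest in Cish, with ratios of Bcl6 to Cish of 0.521 and 5.46 against 22.5 in vehicle replicate 2 and 27.3 in UAB126 replicate 1. The deposited locus of the Bcl6 row also spans Sst and Rtp2, which have rows of their own. The same holds for the Ghr row, with Sepp1 and Ccdc152, and for the Elovl3 row, with Pitx3.

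**Figure D2:**
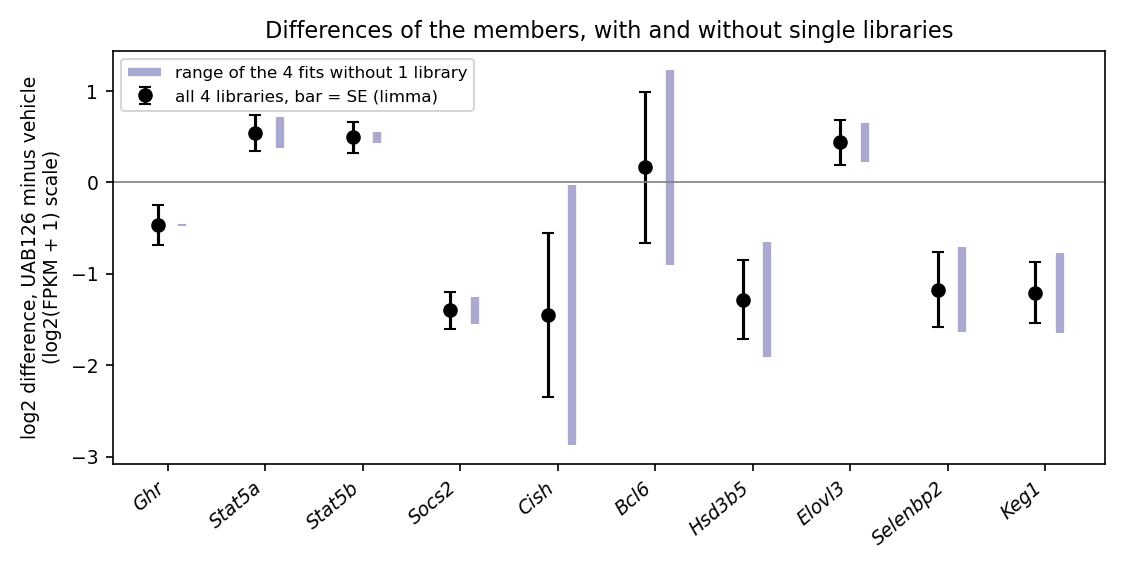
Log2 difference of each member (UAB126 minus vehicle, log2(FPKM + 1) scale) with limma's SE as the bar, and beside it, in purple, the range of the 4 fits that leave out 1 library. The purple range of Cish reaches from -2.87 to -0.03 and that of Bcl6 crosses 0, while Socs2 stays between -1.55 and -1.25.

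Vehicle replicate 1 also differed from the other libraries in further genes, of which Socs3 and Marco were picked after their values were seen. Socs3, another feedback inhibitor of cytokine receptors, was at 5.67 FPKM there and at 1.87 FPKM in vehicle replicate 2, against 2.06 and 1.92 FPKM with UAB126. Onecut1, a liver transcription factor induced by growth hormone, was at 16.1 and 4.36 FPKM in the vehicle libraries, against 4.75 and 0.695 FPKM in the UAB126 libraries. Marco, a macrophage scavenger receptor, was at 0.887 and 16.3 FPKM against 12.9 and 19.9 FPKM. The 7 Kupffer cell markers, none of them at 0, summed to 71.7 and 209.2 FPKM in vehicle and to 166.0 and 206.0 FPKM with UAB126. The 5 endothelial markers, none of them at 0, summed to 56.2 and 95.9 FPKM against 88.2 and 106.2 FPKM. The low level of both lists in vehicle replicate 1 stood beside its high Cish, and their part in the Cish value was not tested.

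**Figure D3:**
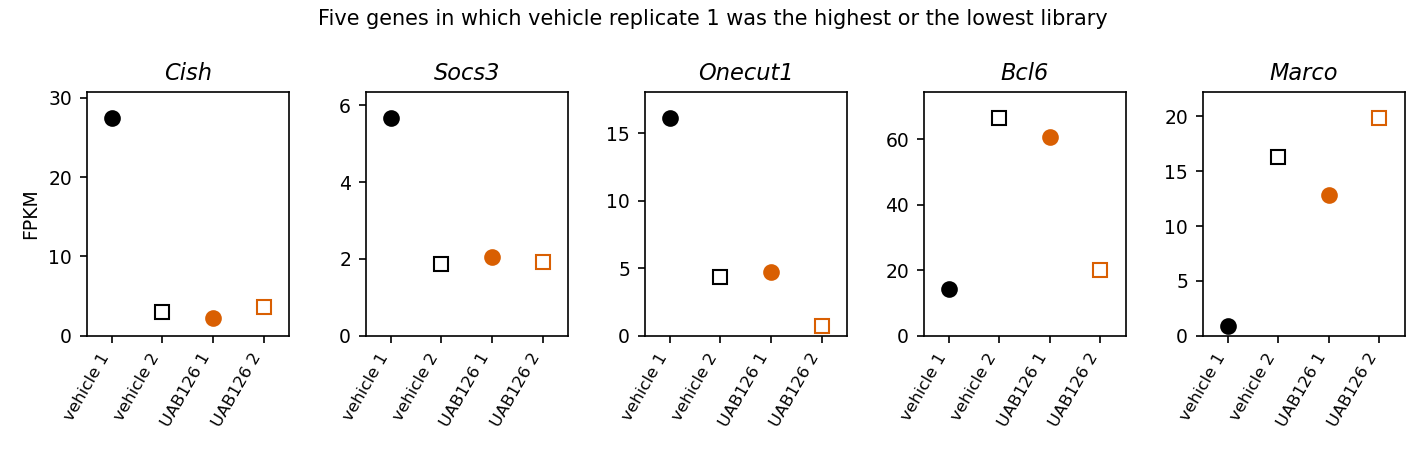
FPKM (each axis from 0) of Cish, Socs3, Onecut1, Bcl6 and Marco in each library, with symbols as in the plot of members by library. Vehicle replicate 1 is the highest library for the first 3 genes and the lowest for Bcl6 (14.3 FPKM) and Marco (0.887 FPKM).

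The 4 remaining members are liver genes that adult male mice express above females and that depend on pulsed growth hormone and STAT5B. Hsd3b5, a steroid dehydrogenase of male liver (chromosome 3, 98618634 to 98630252, minus strand), was at 151.4 and 138.6 FPKM in the vehicle libraries, against 91.5 and 37.9 FPKM in the UAB126 libraries. Keg1, a gene of the glycine acyltransferase family (chromosome 19, 12695786 to 12719902, plus strand), was at 144.6 and 138.8 FPKM in the vehicle libraries, against 82.7 and 44.6 FPKM in the UAB126 libraries. Selenbp2, which encodes a selenium binding protein (chromosome 3, 94693556 to 94704413, plus strand), was at 276.7 and 427.5 FPKM in the vehicle libraries, against 210.5 and 109.6 FPKM in the UAB126 libraries. In all 3 genes both UAB126 libraries lay under both vehicle libraries, and UAB126 replicate 2 was the lowest of the 4.

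The means of Hsd3b5 and Keg1 were 2.24-fold and 2.23-fold lower with UAB126, and that of Selenbp2 by nearly as much. The log2 differences were -1.28 ± 0.43 for Hsd3b5, -1.21 ± 0.33 for Keg1 and -1.17 ± 0.41 for Selenbp2, and limma adjusted p was 0.324, 0.275 and 0.332. Without UAB126 replicate 2 they shrank to -0.66, -0.77 and -0.71, and without UAB126 replicate 1 they grew to -1.91, -1.65 and -1.64. In the main fit the unadjusted limma p of Hsd3b5, Keg1 and Selenbp2 was 0.0288, 0.0136 and 0.0318. After quantile normalization the log2 differences were smaller, at -0.996, -0.92 and -0.79, with unadjusted limma p of 0.111, 0.0698 and 0.141. With the length trend removed that p was 0.0957 for Hsd3b5 and 0.0664 for Selenbp2, but 0.0143 for Keg1. The sign of each gene was the same in all 14 fits. Selenbp2 shares 34.6% of its 75-base words with Selenbp1, which was at 142.6 and 163.8 FPKM against 97.7 and 81.3 FPKM, so the values of these copies are uncertain. Hsd3b5 shares 11.7% of its words with Gm10681, Hsd3b4 or Gm4450. The neighbouring family member Hsd3b3 was at 209.1 and 196.8 FPKM against 159.6 and 106.5 FPKM, also lower in both UAB126 libraries (log2 difference -0.63 ± 0.28).

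Elovl3, an elongase of very long chain fatty acids (chromosome 19, 46131897 to 46135694, plus strand), differed in direction from the other male-biased members. It was at 114.0 and 84.9 FPKM in the vehicle libraries, against 123.1 and 144.9 FPKM in the UAB126 libraries. The groups did not overlap but came close, and the log2 difference was 0.44 ± 0.25 (95% interval -0.19 to 1.07, limma adjusted p = 0.462). It ran from 0.23 without vehicle replicate 2 to 0.75 after quantile normalization.

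Other sex-biased liver genes were read from lists written from general knowledge, with earlier results of these data known. Of 15 further male-biased genes, 14 were tested, and 0 passed limma's threshold, while 9 had an unadjusted p under 0.05, all lower, against 8.38% lower among all symbols. The groups did not overlap in 11 of the 14, 10 lower and 1 higher (Cyp7b1), where 26.9% of all symbols were lower and 22.7% higher, and the median log2 difference was -0.98, against -0.03 for all symbols tested. The hepatocyte markers were lower as well, with a median of -0.73, and their part in the values of the male-biased genes was not tested. Ugt2b38, a glucuronosyltransferase, was at 7.38 and 6.62 FPKM against 1.15 and 1.29 FPKM (log2 difference -1.85 ± 0.19, limma adjusted p = 0.0563). Moxd1, a monooxygenase gene, was at 9.46 and 34.6 FPKM against 0.605 and 0.0615 FPKM (limma adjusted p = 0.132). It reached the filter of 1 FPKM only through vehicle. Mup20, a major urinary protein that carries male scent, was at 12019 and 18994 FPKM against 3023 and 1374 FPKM. Cyp2d9, a steroid hydroxylase, was at 1712 and 1609 FPKM against 656.0 and 495.5 FPKM. Of the 75-base words of Mup20, Ugt2b38 and Cyp2d9, 43.6%, 28.0% and 16.7% also occur in other genes, so their single values are uncertain. Ugt2b38, Moxd1 and Mup20 passed limma's threshold without vehicle replicate 1 (adjusted p = 0.00924, 0.000731 and 0.0417), and Ugt2b38 and Moxd1 without vehicle replicate 2 (0.0281 and 0.0171), each time with a single vehicle library assumed to vary like the UAB126 pair. Without UAB126 replicate 1 their adjusted p was 0.471, 0.693 and 0.575, and without UAB126 replicate 2 it was 0.533, 0.610 and 0.610.

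Of 31 female-biased genes, 30 had a row of their own, and 17 of these were under the filter, 15 of them below 1 FPKM in every library, which is the usual state of a male liver. Of the 13 tested, 0 passed limma's threshold, and 8 were higher and 2 lower at an unadjusted p under 0.05, against 5.03% and 8.38% of all symbols. The groups did not overlap in 12 of the 13, 9 higher and 3 lower, against 22.7% and 26.9% of all symbols, and the median log2 difference was 0.94. Atp6v0d2, among the 3 lower genes, reached the filter of 1 FPKM only through vehicle (means 1.71 FPKM in vehicle and 0.697 FPKM with UAB126). Without the filter the median over the 30 was 0.06, since most of these genes stayed near 0. Cyp39a1, an oxysterol hydroxylase, was at 3.60 and 3.42 FPKM against 21.0 and 36.2 FPKM (log2 difference 2.66 ± 0.29, limma adjusted p = 0.0694). Abcd2, a peroxisomal fatty acid transporter, was at 2.04 and 1.69 FPKM against 4.93 and 5.85 FPKM. Cyp2b10, a drug-inducible cytochrome P450, was at 1.40 and 3.03 FPKM against 12.2 and 48.9 FPKM. Cyp4a14, a fatty acid hydroxylase, was at 275.4 and 46.4 FPKM against 1302 and 2655 FPKM. Cyp39a1, Abcd2 and Cyp4a14 passed without vehicle replicate 1 (limma adjusted p = 0.0109, 0.0391 and 0.00376), and Cyp39a1 without vehicle replicate 2 (0.0485), again with a single vehicle library. Without UAB126 replicate 1 their adjusted p was 0.151, 0.733 and 0.844, and without UAB126 replicate 2 it was 0.397, 0.610 and 0.610. Abcd2 and Cyp4a14 are also known targets of PPAR-alpha, and Cyp2b10 of the receptor CAR. Cux2, a transcription factor that marks female liver, reached 0.0776 FPKM in vehicle replicate 1, was listed at 0 in vehicle replicate 2, and reached 0.107 and 0.0458 FPKM in the UAB126 libraries, too low to compare. Prlr, the prolactin receptor gene, was at 20.5 and 19.6 FPKM against 26.3 and 31.9 FPKM (log2 difference 0.51 ± 0.19).

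**Figure D4:**
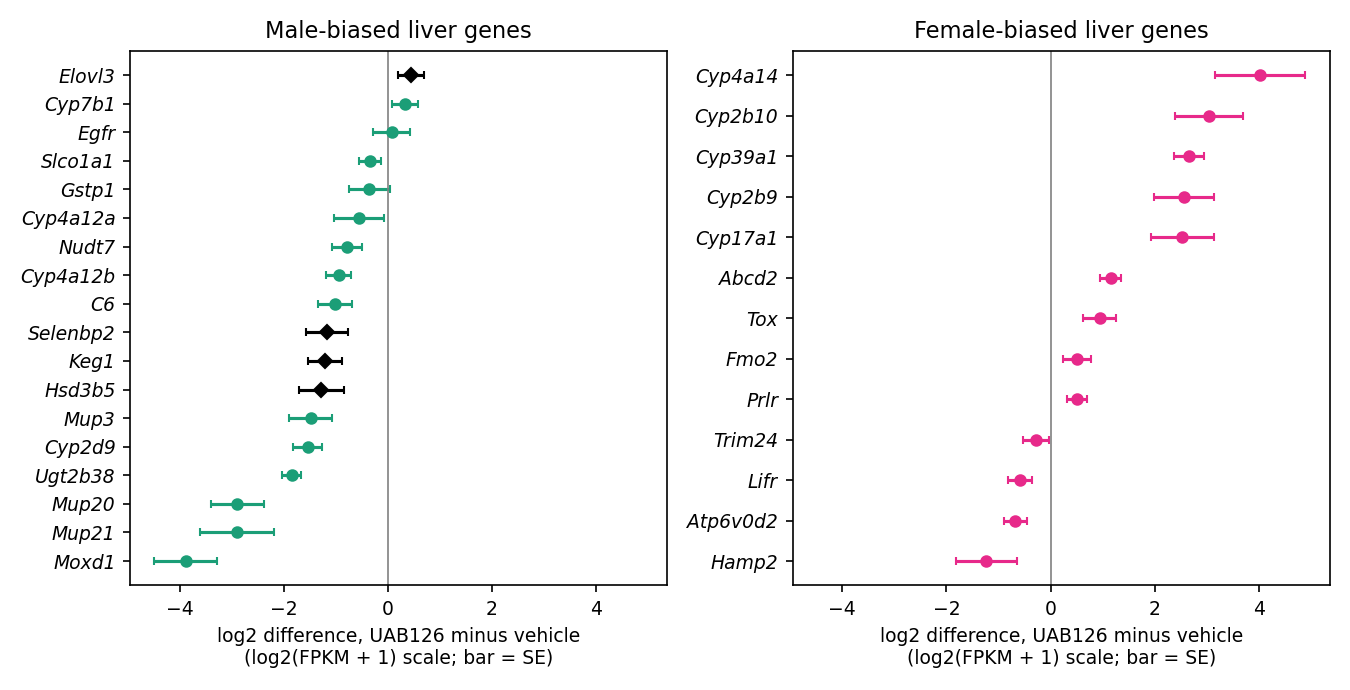
Log2 difference (UAB126 minus vehicle, log2(FPKM + 1) scale) with limma's SE for the tested male-biased genes (left; black diamonds, the 4 members; green circles, 14 further genes) and the 13 tested female-biased genes (right, pink circles). Most male-biased genes lie left of 0 and most female-biased genes right of 0, with Elovl3 (0.44) and Hamp2 (-1.24) among those on the other side.

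The sex labels matched the data: Ddx3y, Eif2s3y, Kdm5d and Uty of the Y chromosome were each above 1 FPKM in all 4 libraries, and Xist did not exceed 0.0233 FPKM. Beyond the members, 24 of 27 genes of growth hormone receptor signalling were tested, and 0 passed limma's threshold, also 0 at an unadjusted p under 0.05. The groups did not overlap in 10 that were higher and 3 that were lower. Among all symbols these shares were 22.7% higher and 26.9% lower, 49.6% in either direction. Jak2, the kinase bound to the receptor, was at 4.62 and 4.15 FPKM in the vehicle libraries, against 5.43 and 4.22 FPKM in the UAB126 libraries, and the groups overlapped (log2 difference 0.11 ± 0.20). Ptpn1, a phosphatase that acts on JAK2, was at 4.73 and 4.35 FPKM against 6.53 and 6.08 FPKM. Pias2, an inhibitor of STAT proteins, was at 6.08 and 5.35 FPKM against 8.88 and 6.96 FPKM. Irs2, an adaptor shared with insulin signalling, was at 2.28 and 0.640 FPKM against 5.76 and 2.21 FPKM, and Socs4 at 0.844 and 0.421 FPKM against 1.94 and 0.938 FPKM. Socs4, among the 10 higher genes, reached the filter of 1 FPKM only through UAB126 (means 0.633 FPKM in vehicle and 1.44 FPKM with UAB126).

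Of 9 further targets and partner factors of STAT5, 0 passed limma's threshold, also 0 at an unadjusted p under 0.05. Igf1 was at 416.6 and 525.7 FPKM in the vehicle libraries, against 428.7 and 600.7 FPKM in the UAB126 libraries. The groups overlapped, and the log2 difference of 0.12 ± 0.30 had a 95% interval of -0.63 to 0.86. Igfals, which encodes a subunit of the complex that carries IGF1 in blood, was at 73.3 and 78.5 FPKM against 61.6 and 53.2 FPKM (log2 difference -0.40 ± 0.20). The hepatocyte transcription factor genes differed in direction, Hnf4a with 123.0 and 121.3 FPKM against 160.7 and 176.6 FPKM and Cebpa with 185.3 and 168.6 FPKM against 121.3 and 129.7 FPKM.

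A list of 6 genes known to rise in livers that lack the growth hormone receptor or STAT5 did not move one way. Of these, 1 passed limma's threshold, and it was lower: Cidea, a lipid droplet protein gene, was at 7.17 and 5.87 FPKM in the vehicle libraries, against 0.129 FPKM in UAB126 replicate 1 and a listed 0 in UAB126 replicate 2 (limma adjusted p = 0.0361). Its call was lost in 6 of 12 alternative fits, among them those without UAB126 replicate 1 (adjusted p = 0.233) or 2 (adjusted p = 0.344). Mogat1, an acyltransferase of triglyceride synthesis, was at 3.09 and 1.66 FPKM against 0.620 and 0.656 FPKM. Cidea and Mogat1 reached the filter of 1 FPKM only through vehicle. Pparg, a lipid-sensing nuclear receptor, was at 17.1 and 6.87 FPKM against 6.52 and 5.16 FPKM, with vehicle replicate 1 again the highest. Vldlr, a lipoprotein receptor, was at 0.658 and 2.56 FPKM against 1.95 and 3.04 FPKM. The median log2 difference of the 6 genes was -0.38.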

How the data were processed

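Polyadenylated liver RNA was sequenced from both ends with reads of 75 bases, per the labels' protocols. The submitters' processing notes name mm10 as the build and, without roles, Cuffdiff, Cufflinks 2.2.1, STAR 2.5.1b and Trim Galore 0.4.1. For settings and annotation: not given in the sources used here. The authors deposited 1 table of FPKM values with a column per library, already scaled for depth and transcript length, so no count test was run. Of 27216 rows, 3634 without a symbol were left out, and rows sharing a symbol were summed. The spacing of values under 0.3 FPKM gave relative depths of 0.691 and 0.404 in vehicle and 1 and 0.703 in UAB126; absolute depth is unknown, and vehicle replicate 2 is the least precise. Between 10494 and 10772 symbols per library had at least 1 FPKM.

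Symbols whose mean reached 1 FPKM were fitted as log2(FPKM + 1), which understates changes of low genes, with limma 3.58.1 in R 4.3.3 (intensity trend, group as the only term, two-sided, Benjamini-Hochberg over all symbols, threshold 0.05). Of the 5.35 degrees of freedom, 3.35 come from other genes. With 2 libraries a group, no exact permutation test can reach 0.05. The fit was tested on simulated data. Named genes were the members, any listed gene past the threshold, the 4 smallest unadjusted p of each list, and Jak2, Igf1, Igfals, Prlr and Cux2. A gene that this rule names is not reported here. Members and lists were chosen with earlier results of these data known. Alternatives varied the scaling, length trend, pseudocount, filter, prior spread, rows without a symbol, replicate number and single libraries. Sequence words were counted in GENCODE M21 transcripts with Python 3.11.15.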

Additional observations from a re-analysis of the deposited data

How the results depend on the processing

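Of 129 alternative values for the 10 members, 2 turned sign, both for Bcl6, and 2 passed the threshold that had not, Socs2 and Cish, each in 1 fit without a vehicle library. Over the fits without 1 library Bcl6 ran from -0.90 to 1.24. Members at an unadjusted limma p under 0.05 numbered 6 in the main fit. With all 4 libraries kept, their number was lowest at 3, with no filter and with rows without a symbol kept. It was highest at 7, with the replicate number as a block and with a single prior spread for all genes. After quantile normalization it was 4: Stat5a, Stat5b and Elovl3, higher, and Socs2, lower. Hsd3b5, Keg1 and Selenbp2 were then above an unadjusted limma p of 0.05. Of 304 values for 24 other named genes, 18 passed the threshold where the reported value had not, and 5 turned sign. The sign turned for Jak2 (-0.043 to 0.26 without single libraries), Vldlr (-0.047 to 1.06) and Igf1 (-0.13 to 0.36, and -0.016 with the length trend removed). Members past the threshold numbered 0 to 1 without single libraries and 0 in every other fit. All symbols past the threshold numbered 15 (5 higher), but 24 (12 higher) after quantile normalization, 23 after median centring, 27 with a pseudocount of 0.1, 2 with no filter, 0 with rows without a symbol kept (limma, 1413 at an unadjusted p under 0.05), and 0 to 442 without single libraries (442 without vehicle replicate 1, 56 without vehicle replicate 2, and 0, with 737 at an unadjusted p under 0.05, without UAB126 replicate 2). The median of the male-biased list was -0.69 after quantile normalization and -1.28 to -0.70 without single libraries. That of the female-biased list was 0.063 with no filter (30 genes), 2.53 with a stricter filter of 5 FPKM (9 genes), and 0.58 to 1.24 without single libraries. Of those 9 genes, Cyp2b9, Cyp2b10 and Cyp39a1 reached 5 FPKM only through UAB126, with vehicle means of 1.24, 2.22 and 3.51 FPKM. Trim24 reached it only through vehicle, with a UAB126 mean of 4.45 FPKM. The value of 2.53 therefore depends on which genes that filter keeps. The labels do not say whether the replicate numbers pair libraries, and with 2 pairs the data cannot settle it (the differences between replicate 1 and 2 correlated across genes by 0.178 between the groups). With the replicate number as a block, 148 symbols passed and 0 members, and Ugt2b38, Cyp2d9, Cyp39a1, Cyp2b10 and Onecut1 were among those that passed. Socs2 could not be fitted under the filter of 5 FPKM. The cause of these moves was not tested, apart from the fewer genes or libraries that some fits hold.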
